A study of Oncorhynchus mykiss with 18 samples.

Results

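Predicted miRNA loci that were counted in tank water and in neither plasma nor epidermal mucus of rainbow trout (Oncorhynchus mykiss) are described here. The deposited table lists 4884 rows, of which 212 are known miRNAs named after Atlantic salmon and 4672 are loci named by their position in the genome Omyk_1.0. Loci were chosen by their counts: a locus was taken when these summed to 0 over the 12 plasma and mucus libraries and to more than 0 over the 6 water libraries, and 225 loci met this. They were 225 of the 386 predicted loci counted in water at all, and the other 161 were also counted in plasma or mucus. Their absence from plasma and mucus is a definition and was not tested.

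Small RNA was sequenced from plasma, mucus and water in 3 replicates before (control) and 3 replicates 1 h after (stressed) 3 min out of water in air. Control and stressed water of a replicate, 1 L each, came from the same tank, whereas plasma and mucus came from different fish at each time. The tank still held fish when both water samples were taken, and the net used for the air exposure had been put into the water before the control sample. Libraries are named below by treatment and tank, and the tanks are the replicates. Total counts were 445067 to 695998 in control water, 3451473 to 5414071 in stressed water and 1751108 to 23634159 in plasma and mucus. Of the known miRNAs chosen as markers, all 15 of epithelium and skin were counted in water, at 105866 to 237375 counts per 1000000 (CPM, of the library's total) when summed, whereas 3 of white blood cells summed to 307 to 470 CPM and 1 of red blood cells lay at 5.75 to 31.5 CPM. Water RNA was extracted from filters, so RNA that passed through them was not sequenced. Within what the filters kept, RNA inside shed cells and free RNA cannot be told apart. Plasma, mucus and water were each extracted with a different kit, so sample type and extraction cannot be told apart either.

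A miRNA is cut from a precursor transcript that folds back into a hairpin, and one or both arms of the hairpin leave a short mature RNA. Prediction software searches a genome for stacks of short reads lying where the arms of a possible hairpin would be, and it names each hit by its start and end. Such a hit is a candidate only, and other short RNAs that map to a sequence able to fold can give one too. Animals release miRNAs into body fluids and mucus, where vesicles or bound proteins can protect them, and RNA shed into water is studied as environmental RNA because it can be collected without handling the fish. Water also carries RNA of other organisms. The genes next to the loci were not analysed here, and the sequences of the loci were not used here. The deposited positions do not state whether starts count from 0 or 1, so the span of a locus is given as end minus start.

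The 225 loci were short and lay throughout the genome. Their spans ran from 37 to 112 bases with a median of 62, against a median of 60 for the 4447 other predicted loci. They lay on 28 of the chromosome sequences, 127 on the plus and 98 on the minus strand, and 19 (8.44%) were on unplaced scaffolds, against 11.3% of the other predicted loci. Members of different merged units (below) seldom lay near each other, and 4 stretches held such members within 20 kb. The stretch with the most counts was on NC_035091.1 between 38272153 and 38286031, with 3 loci and 128051 counts in all. Neighbouring members of the same unit, such as those at 46749 and 50634 of NW_018553268.1, were not counted here.

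Many of the 225 rows repeat each other. Of these loci, 138 had exactly the counts of at least 1 other locus in all libraries, in 44 groups of up to 7. Keeping 1 row of each group left 131 rows. Merging loci that overlapped on a strand left 193, and merging by overlap and by identical counts left 111 units, 44 of them with more than 1 locus and the largest with 10. Units are numbered below by their summed water count, and each is named by its locus of highest summed water count. Small identical counts need not come from copies of a sequence. Of the 16 groups with a summed count of 20 or more, 13 consisted of loci of equal span, against 5 of the 28 groups below 20. When identical rows were merged only if their spans were equal too, 154 units remained.

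The counts were concentrated in a few units. Summed over the 6 water libraries, a locus had between 3 and 59969 counts with a median of 17, and 25 of the 225 loci reached 1000. Unit 1 alone held 39.7% of the counts of all units, the first 5 held 81.4% and the first 12 held 96.0%. At the lower edge of the definition stood 2 loci with 3 counts each, NC_035080.1 at 34970637 in control tank 1 and NC_035083.1 at 30825752 in control tank 3. Just outside it stood 2 loci of identical counts, NW_018538957.1 and NW_018590348.1 at 130, with 14 counts in stressed tank 2 and 2 counts in plasma of stressed replicate 2. Only 4 of the 161 loci outside the definition had fewer than 10 counts in plasma and mucus together.

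An absence of counts at a listed locus did not always mean that its place in the genome had none. Of the 225 loci, 87 (38.7%) overlapped on the same strand another predicted locus that had counts in plasma or mucus, and these 87 held 65.2% of the counts of the set. In 82 of the 87 both ends lay within 10 bases of the other locus. The overlapping loci held counts in plasma alone for 51 of the 87, in mucus alone for 6 and in both for 30. Of the 189 pairs of a member and an overlapping plasma or mucus locus, 186 (98.4%) had no library in common. By the definition of a member such a pair could share only a water library, so this share is in part fixed. Among the 37 overlapping pairs of members 31 (83.8%) had none in common. Among all 954 same-strand overlapping pairs of predicted loci 786 (82.4%) had none. Opposite-strand overlaps with plasma or mucus loci were found for 4 members. The smallest count above 0 was 2 in predicted loci and 1 in known miRNAs, so that no upper limit is given for a 0 at a predicted locus. For these 87 loci, a 0 in plasma or mucus thus stood beside a count of an overlapping locus in at least 1 of those libraries.

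**Figure D1:**
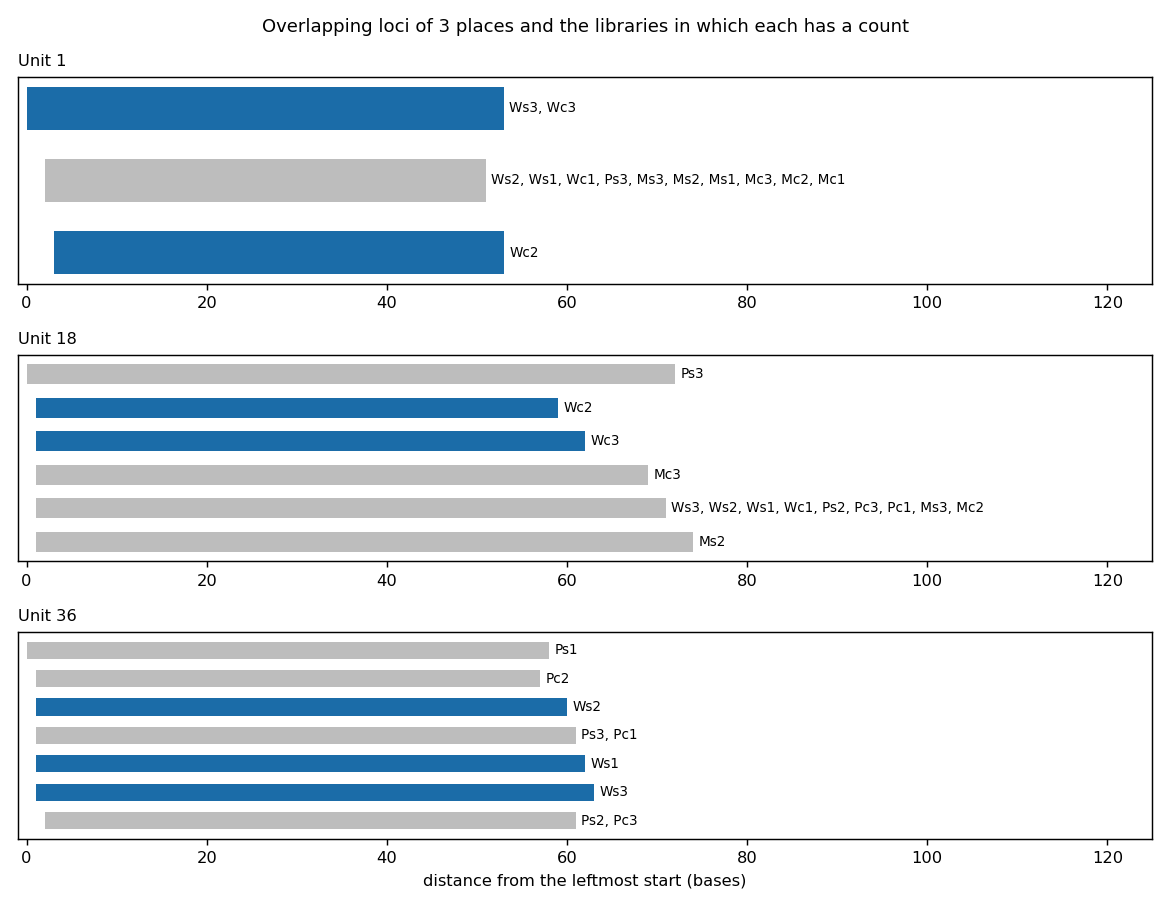
Overlapping predicted loci at 3 places, drawn as distance in bases from the leftmost start. Blue loci were counted in water alone and grey loci also in plasma or mucus, and beside each stand the libraries with a count (W water, M mucus, P plasma, c control, s stressed, then the replicate). At unit 1 all 6 water and all 6 mucus libraries have a count, each at only 1 of the 3 loci.

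Unit 1 is the clearest case. It lies on the minus strand of NC_035091.1 and consists of a locus from 38285978 to 38286031 and another from 38285981 to 38286031. The former had 29228 counts in control tank 3 and 30741 in stressed tank 3, and the latter had 47243 in control tank 2. Neither had a count in the remaining water libraries. Another locus, from 38285980 to 38286029, had 37219 counts in control tank 1, 29417 in stressed tank 1 and 33661 in stressed tank 2, along with counts in all 6 mucus libraries (304 to 11265) and 1015 in plasma of stressed replicate 3. Put together, the place was counted in all 6 water libraries, at 5678 to 72959 CPM, and in mucus at 25.9 to 3317 CPM. What was confined to water was therefore a pair of end positions, not the place.

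The same held for other leading units. Unit 4, on the minus strand of NC_035093.1 from 39200163 to 39200219, had 20539 counts in stressed tank 1 alone. A locus ending 2 bases earlier, at 39200217, had 1959, 1665 and 1956 counts in control tanks 1 to 3 and 13053 and 21020 in stressed tanks 2 and 3, as well as counts in mucus and plasma. Unit 3, on the plus strand of NC_035091.1 from 38272153 to 38272197, had 8825 counts in control tank 1 and 12014 in stressed tank 2, and a locus starting 1 base later had 14440 to 20857 counts in 3 mucus libraries and none in water. Unit 5, on the plus strand of NC_035087.1 from 193452 to 193519, had 4281 counts in control tank 3 and 7206 in stressed tank 3, with 5071 in stressed tank 2 at a locus ending 1 base earlier. At that place 2 overlapping loci with mucus counts held 4865 and 5638 counts in control tanks 1 and 2, which left stressed tank 1 as the only water library without one. One of them, from 193413 to 193472, also repeated the counts of the members in their 3 libraries. These places thus appeared in 6, 2 and 5 water libraries, where their loci counted in water alone appeared in 1, 2 and 3.

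Some members lay at places that were also counted in plasma, at levels above or below those in water. Unit 30, on the minus strand of NC_035088.1 from 31192087 to 31192129, had 156 counts in control tank 2 only. A locus starting 1 base later had 75 and 227 counts in control tanks 1 and 3, 1792, 939 and 2224 in stressed tanks 1 to 3, and between 32945 and 589109 in all 6 plasma libraries. As a place it reached 51498 CPM in plasma, against at most 510 CPM in water. Unit 36, on the plus strand of NC_035101.1 from 8003856 to 8003917, had its 3 loci counted in 1 stressed library each, with 45, 27 and 19 counts in tanks 1 to 3, and 4 overlapping loci carried counts in all 6 plasma libraries (14.9 to 82.3 CPM). Unit 18, on the plus strand of NC_035083.1 at 7009417 with an identically counted copy at 10313296 of NC_035094.1, had 338 counts in control tank 2 and 134 in control tank 3, and a further locus at the copy had 135 in stressed tank 2. Together with overlapping loci that place had counts in all 6 water libraries (38.8 to 522 CPM), 4 mucus libraries (17.4 to 77.1 CPM) and 4 plasma libraries (2.95 to 11.3 CPM). By place, units 30 and 36 were thus higher in plasma, and unit 18 was higher in water. In each of these units the loci counted in water alone differed from an overlapping plasma locus only in their end positions.

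The remaining 138 loci had no same-strand overlap with a plasma or mucus locus and held 34.8% of the counts. Of these loci, 110 lay in the 68 units that held no overlapping locus at all, and the other 28, with 473 counts between them, had been joined to an overlapping locus in 11 further units. The 68 units had a median summed count of 22, and 19 of them reached 100 counts. Of these 19, 10 were counted in 1 library and none in all 3 tanks. One place outside the 68 units had no overlap of its own and did recur in 3 tanks, with 206 counts on NC_035093.1 (unit 26, below). Unit 2, on the minus strand of the unplaced scaffold NW_018586303.1 from 4270 to 4365, had 54640 counts, all in stressed tank 3. Unit 6, with identical counts at NC_035100.1 from 17345845 to 17345898 and at NW_018651167.1 from 28 to 81, had 10378 counts in that same library and none elsewhere. Unit 8, a pair of copies at 46749 and 50634 of NW_018553268.1, had 5604 counts in control tank 2 alone, and unit 10, NC_035103.1 from 8461012 to 8461090, had 3706 in control tank 1 alone. The 4 of the 68 units with the highest counts were thus each seen in a single library.

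**Figure D2:**
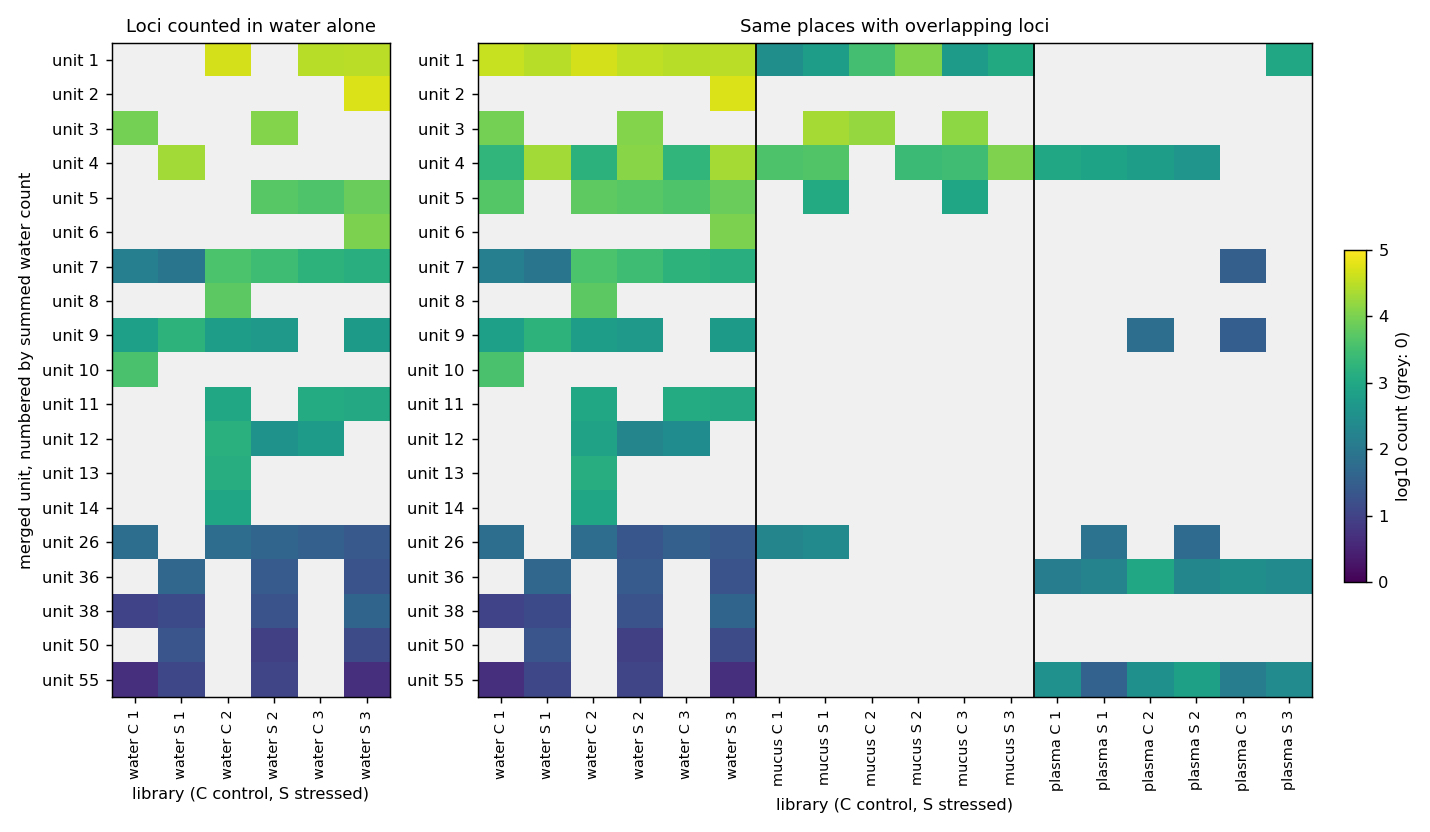
Counts on a log10 colour scale of the first 14 units and of the units counted in all 3 tanks, one row per unit and one column per library, with grey for 0. Left, the loci counted in water alone. Right, the same places with overlapping loci added (highest count per library), in water, mucus and plasma. Unit 1 turns from 3 to 6 water libraries, while units 2, 6, 8 and 10 stay in 1.

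Few loci recurred over tanks. As listed, 189 of the 225 loci (84.0%) were counted in 1 water library, 25 in 2, 5 in 3, 5 in 4 and 1 in all 6. By tank, 196 were counted in 1 tank, 22 in 2 and 7 (3.11%) in 3. Of the 111 units, 75 were counted in 1 library, and 79, 25 and 7 in 1, 2 and 3 tanks, so that 6.31% recurred in every tank. With overlapping loci added, 17 of the 111 places (15.3%) were counted in all 3 tanks. By comparison 37 of the 161 predicted loci also counted in plasma or mucus (23.0%) and 131 of the 162 known miRNAs counted in water (80.9%) recurred in all 3 tanks. These sets differ in count level, and the difference between them was not tested. Of the 25 loci counted in exactly 2 libraries, 7 were shared by the control and stressed library of a tank. Libraries of the same treatment from different tanks shared 17, and libraries differing in both shared 1. With each unit taken once these numbers were 6, 15 and 1. Of the 15 possible library pairs, 3, 6 and 6 are of these kinds. Stressed water listed more loci in every tank, so the library pairs were not equally likely to share one, and no test was made.

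**Figure D3:**
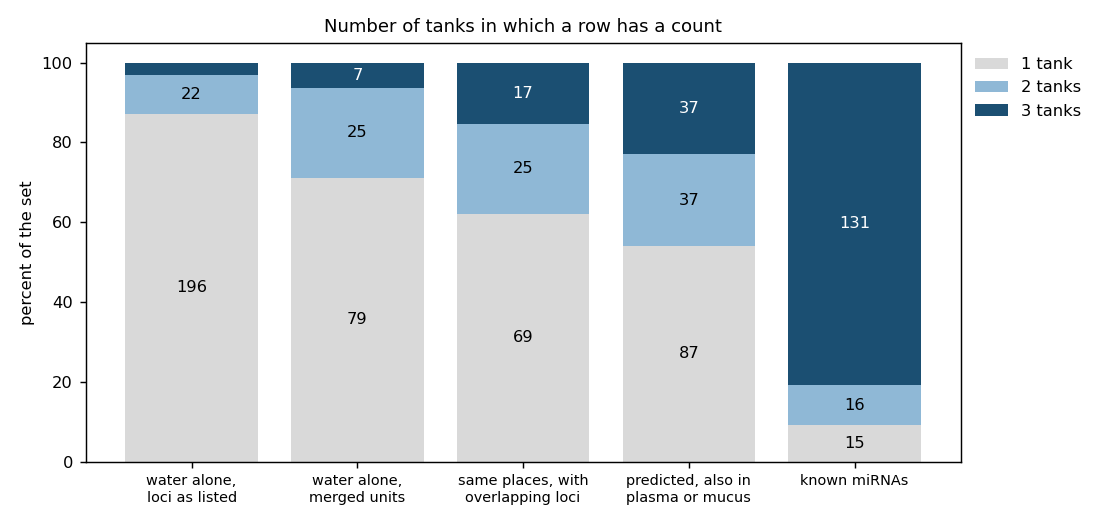
Percent of each set counted in 1, 2 or 3 tanks, with the number of rows printed in the bars. Of the loci counted in water alone 196 of 225 are seen in 1 tank, of the known miRNAs 15 of 162.

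The 7 units seen in all 3 tanks were of very different abundance. Unit 7, on the minus strand of NC_035077.1 from 6400391 to 6400472, was the only one counted in all 6 libraries, with 147 and 87 counts before and after stress in tank 1, 3882 and 2765 in tank 2, and 1679 and 1379 in tank 3. At its place the only other counts were 32 in plasma of control replicate 3, at a locus 1 base shorter on each side. Unit 9 consisted of 4 copies, 3 on NC_035089.1 (47247503, 52226742 and 52439972) and 1 on the scaffold NW_018571518.1 (727), each with a span of 40 or 39 bases. It had 678 and 1721 counts before and after stress in tank 1, 632 and 475 in tank 2, and none before but 522 after in tank 3, against 65 and 31 counts in 2 plasma libraries at overlapping loci. These were the most abundant of the 7.

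The other 5 units of 3 tanks were small. Unit 26, on the minus strand of NC_035093.1 at 20336754, had 64, 61 and 34 counts in control tanks 1 to 3, and 22 and 25 in stressed tanks 2 and 3 at that place. It had been joined through a row of 25 identical counts to a locus on NC_035085.1 that overlapped plasma and mucus loci, whereas none overlapped the place itself. Unit 36 is described above. Unit 38, on the plus strand of NC_035093.1 from 45959715 to 45959778, had 10 and 13 counts in tank 1 and, after stress only, 19 in tank 2 and 40 in tank 3. Unit 50, on the minus strand of NC_035081.1 from 82505469 to 82505529, was counted in stressed water only, with 21, 9 and 14 counts. Unit 55 joined 10 loci through overlap and identical counts of 5 to 12 and was no single place. Its overlapping loci on the minus strand of NC_035099.1, all ending at 33030292, had 12, 11 and 5 counts in stressed tanks 1, 2 and 3. A further locus overlapping them had 29 counts in plasma of control replicate 3. When the 138 loci with no plasma or mucus overlap were merged by overlap alone, 3 of 131 places recurred in 3 tanks: the place of unit 26 on NC_035093.1 with at most 64 counts in a library, and units 38 and 50 with at most 40.

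More of the 225 loci were counted after stress than before in every tank. Control water of tanks 1, 2 and 3 had counts at 23, 43 and 26 of the 225 loci, and stressed water at 51, 57 and 80. The mean was 30.7 ± 10.8 before and 62.7 ± 15.3 after (SD, n = 3), a difference of 32.0 ± 20.3 loci, and it was in the same direction in 3 of 3 tanks (exact sign-flip test over tanks, 2-sided, p = 0.25, the smallest that 3 pairs can give). As units the numbers were 18, 32 and 17 before and 30, 38 and 36 after. The 138 loci with no plasma or mucus overlap numbered 14, 23 and 18 before and 28, 26 and 56 after, but the 68 units numbered 12, 19 and 10 before and 14, 18 and 20 after, higher in 2 of 3 tanks, and at a count minimum of 10 they were higher in tank 3 alone (10, 18 and 7 before, 9, 16 and 17 after). The totals of the stressed libraries were higher by a wide margin. After thinning all 6 libraries to the lowest total, the expected numbers were 22.9, 43.0 and 26 before and 35.4, 50.7 and 59.2 after. The difference in number was then 17.8 ± 13.6 loci and positive in 3 of 3 tanks. Thinning took a locus with 1 count left as counted, whereas the smallest count above 0 of the 225 loci was 3. The thinned numbers thus do not follow the detection of the listed ones, and no conclusion is drawn from them. Numbers of loci also counted in plasma or mucus (24 to 39 before, 78 to 81 after) and of known miRNAs (mean 112 before, 143 after) were higher after stress in 3 of 3 tanks as well.

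Mostly different loci were listed before and after. Over the 3 tanks 61 loci were counted before only, 146 after only and 18 at both times. For the 161 predicted loci also counted in plasma or mucus these numbers were 16, 105 and 40. For the 162 known miRNAs counted in water they were 4, 27 and 131. A row counted in a single library can fall only under before or after. In these sets 189 of 225, 83 of 161 and 15 of 162 rows were such. The split thus follows in part from how few libraries listed a row, and a change with stress was not tested on it. Within a tank, 2 loci of tank 1, 12 of tank 2 and 5 of tank 3 were counted in both libraries. For units these numbers were 4, 11 and 6, and with overlapping loci added 8, 17 and 11 places were counted both before and after in tanks 1, 2 and 3. Known miRNAs, by contrast, were counted at both times in 106, 105 and 115 of 162 cases. Predicted loci also counted in plasma or mucus were so in 22, 17 and 17 of 161. A single count is worth more CPM in the smaller control libraries, where 3 counts equal 4.31 to 6.74 CPM against 0.554 to 0.869 CPM after stress.

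The share of the library held by the 225 loci was lower after stress in every tank. They summed to 15957, 72696 and 39163 counts in control tanks 1, 2 and 3, and to 28666, 23966 and 120135 in stressed tanks. As a share of the total count this was 2.29%, 11.2% and 8.80% before and 0.563%, 0.694% and 2.22% after. The mean log2 ratio of stressed over control was -2.68 ± 1.16 (SD, n = 3 tanks), or 6.39-fold lower, in 3 of 3 tanks (exact sign-flip test, 2-sided, p = 0.25, the smallest possible). Without unit 1 it was -1.65 ± 1.08. In tank 3 the summed count after stress rested largely on unit 2, which held 54640 of the 120135 counts. The direction in tank 3 differed between the loci with and without a plasma or mucus overlap. The 87 overlapping loci had log2 ratios of -1.63, -3.73 and -3.36 in tanks 1, 2 and 3, and the 138 others -5.28, -5.95 and 0.83 (mean -3.46 ± 3.73, exact sign-flip test, p = 0.50). The 68 units gave -5.46, -5.45 and 1.03. Without unit 2 the 138 loci were lower in tank 3 too, at -0.91. Predicted loci also counted in plasma or mucus had a ratio of -1.02 ± 0.39, and known miRNAs 0.31 ± 0.21. The loci counted in water alone were thus lower relative to the shared loci by -1.66 ± 0.93 and relative to known miRNAs by -2.99 ± 1.34, each in 3 of 3 tanks (exact sign-flip test, p = 0.25 for both, 2 comparisons). Without unit 1 the difference from the shared loci was -0.64 ± 1.17 and lower in 2 of 3 tanks.

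**Figure D4:**
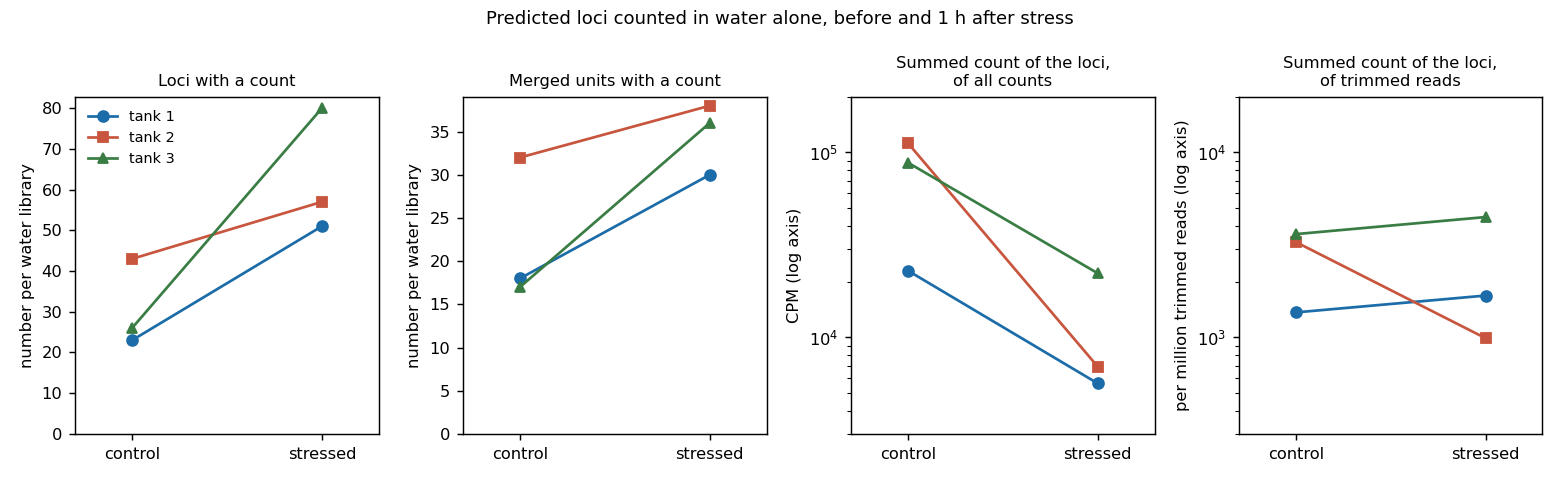
Loci counted in water alone before and 1 h after stress, one line per tank: the number of loci and of merged units with a count (axes from 0), and their summed count as CPM of the total count and per 1000000 trimmed reads (log axes). The numbers are higher and the CPM lower after stress in all 3 tanks, while per 1000000 trimmed reads tank 2 is at 3274 before and 988 after and tanks 1 and 3 are higher after.

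That lower share depends on what it is a share of. All rows together had 29162 to 59402 counts per 1000000 trimmed reads in control water and 142318 to 298302 in stressed water, a ratio of 4.93 on average, so that in both most trimmed reads were counted at no row. Scaled per 1000000 trimmed reads, the loci counted in water alone stood at 1362, 3274 and 3610 before and 1680, 988 and 4464 after stress in tanks 1, 2 and 3, a log2 ratio of -0.37 ± 1.17 that was lower in 1 of 3 tanks (exact sign-flip test, p = 1.0). Without unit 1 it was 0.65 ± 1.08, also lower in 1 of 3 tanks. The 138 loci with no plasma or mucus overlap had ratios of -2.95, -3.66 and 3.12 on this scale. With overlapping loci added, the same places stood at 4986, 3211 and 3700 before and 3244, 2875 and 4874 after, a log2 ratio of -0.13 ± 0.51. On that scale known miRNAs had a log2 ratio of 2.61 ± 0.19, higher in 3 of 3 tanks (exact sign-flip test, p = 0.25). Per trimmed read, the places thus had log2 ratios of -0.62, -0.16 and 0.40 in tanks 1, 2 and 3, while known miRNAs were 6.12-fold higher on average.

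Single loci showed the same. A locus could be compared within a tank when it had counts at both times, which gave 19 locus and tank pairs of 17 loci. The CPM was lower after stress in 19 of 19, with a median log2 ratio of -2.85, and 17 were below -2. The 4 copies of unit 9 entered separately with the same counts. In tanks 1, 2 and 3, 49, 45 and 75 loci counted after only and 21, 31 and 21 counted before only could not enter. The smallest listed count was worth more CPM in control water, so this choice can favour lower ratios. Among known miRNAs 124 of 326 such pairs (38.0%) were lower, 9 (2.76%) were below -2, and the median was 0.30. Predicted loci also counted in plasma or mucus lay between, with 48 of 56 pairs lower and a median of -1.33. Among pairs with at least 100 counts before stress, all 12 pairs of loci counted in water alone were below -2 (median -2.88). As merged units, 10 of 11 were. So were 16 of 30 pairs of predicted loci also counted in plasma or mucus (median -2.37) and 4 of 189 pairs of known miRNAs. The medians of the predicted sets thus lay closer together at this cut. The cut is on the control count, by which the ratio is divided, so it can favour lower ratios. No cut on the stressed count was made. Pairs share their libraries and some loci share their reads, so no test was made over pairs. Scaled per 1000000 trimmed reads, the median of the 19 pairs was -0.56 and that of known miRNAs 2.61. As raw counts, the 19 pairs had a median ratio of 0.752 after over before, and known miRNAs one of 9.34.

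**Figure D5:**
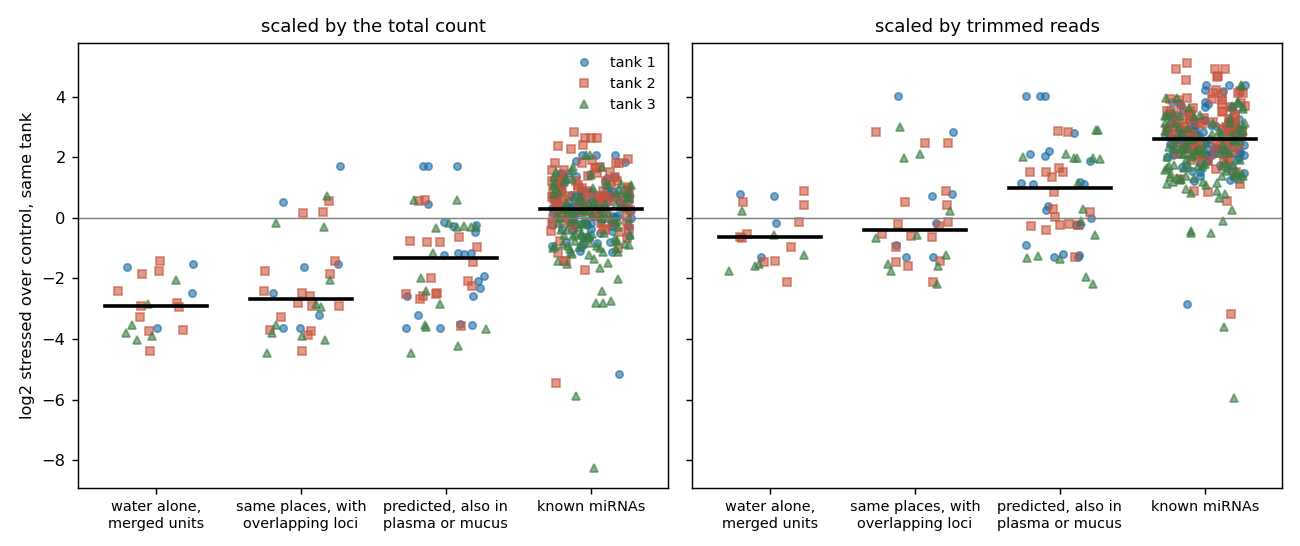
Log2 ratio of stressed over control water within a tank for each row counted at both times, scaled by the total count (left) and by trimmed reads (right), with 1 point per row and tank and a bar at the median. On the left all 21 points of the merged units lie below 0 and known miRNAs centre on 0.30. The point of unit 55 in tank 1 sets loci of different chromosomes against each other. On the right the medians are -0.62 and 2.61.

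Places differed in how their counts followed the library totals. At unit 1, as a place, counts before and after were 37219 and 29417 in tank 1, 47243 and 33661 in tank 2, and 29228 and 30741 in tank 3, so that counts after stress were 0.79, 0.71 and 1.05 times those before while CPM was 9.25, 7.48 and 11.6-fold lower after stress. Unit 7 gave CPM values 12.4, 7.48 and 14.8-fold lower, and unit 18 gave log2 ratios of -3.62, -3.74 and -2.96. At unit 4, counts were 10.5, 7.84 and 10.7 times as high after stress, and its log2 ratios of CPM were only 0.52, 0.56 and -0.18. Unit 30, the place abundant in plasma, had log2 ratios of 1.71, 0.18 and -0.31. Of the 36 place and tank pairs, 30 were lower after stress by CPM and 23 were below -2, and the 6 that were higher belonged to units 4, 23 and 30, each of which had counts in 4 or more plasma libraries. Unit 18 had counts in 4 plasma libraries as well and was lower after stress. The 36 pairs include unit 55 in tank 1 at -1.61, which was no single place. Its control count lay on NC_035102.1 and its stressed count on NC_035092.1 and NC_035099.1, so that ratio compares different loci. A relation between change and plasma counts was not tested.

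A test of each row in water found 1 altered member. With the tank as a block, edgeR's quasi-likelihood test covered 165 rows after its filter on low counts, 9 of them members, and called 3 rows (1.82%), all lower after stress. A call needed p of 0.05 or less, a false discovery rate (FDR) below 0.1, and a log2 fold change above 2 or below -2. The member called was unit 7, with a log2 fold change of -3.66 ± 0.20 (SE, back-calculated from the test statistic) and an FDR of 0.0284. The median log2 fold change of all rows tested was 0.39. Loci of 6 units had passed the filter, and those of units 9, 11, 12, 38 and 40 were not called. Unit 11 (NC_035085.1 from 26542280 to 26542333) had 937 and 0 counts before and after stress in tank 2 and 1181 and 1026 in tank 3. Unit 12 (NC_035078.1 from 79936572 to 79936629) had 746 and 189 counts in tank 2 and 276 and 0 in tank 3. Unit 40 (NC_035092.1 from 1747678 to 1747753) had 17 and 25 counts in tank 2 and 30 and 0 in tank 3. None of these 3 had a count in tank 1, and the fold changes of these 5 units had standard errors of 2.65 to 6.43.

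The call of unit 7 held by the study's likelihood ratio test (FDR 0.00035 in edgeR, where 15 of 165 rows or 9.09% were called) and with DESeq2 size factors in edgeR (FDR 0.0313). It was lost without the block (FDR 0.319 in edgeR) and by DESeq2's Wald test (adjusted p = 0.719), with log2 fold changes of -3.56 and -3.74. It was also lost without any 1 tank, with FDR of 0.168 to 0.452 in edgeR and log2 fold changes of -3.63 to -3.76. Scaled by trimmed reads the log2 fold change was -1.17 (edgeR FDR 0.104), while the median of all rows tested moved to 2.90. Its counts were lower after stress in 3 of 3 tanks, by far less than its CPM.

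DESeq2 called other loci. Its Wald test with the tank called 28 of 548 rows (5.11%), 13 of them higher (2.37%) and 15 lower (2.74%) after stress. It called 9 members, 1 higher and 8 lower, and gave no adjusted p for 100 members. Of the 9, 5 had counts in 1 library: unit 2, higher after stress, and lower the locus of unit 1 counted in control tank 2, both copies of unit 8, and unit 10. The other 4 were lower after stress and had counts in 2 control libraries and in no stressed one. A locus of unit 12 (NC_035078.1 from 79936510) had 746 and 276 counts in control tanks 2 and 3, and NC_035105.1 at 28003733 had 81 and 98 in control tanks 1 and 2. A locus of unit 26 had 64 and 34 in control tanks 1 and 3, and NC_035091.1 at 24851800 had 14 and 47 in control tanks 1 and 2. For the loci of units 1, 12 and 26 an overlapping locus held counts in stressed water. No fold is given for these, since a stressed count of 0 stands for a locus that was not listed.

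Rows were then rebuilt by summing overlapping loci and keeping identical rows once over the whole table. In that table edgeR's quasi-likelihood test covered 151 rows and called 6 (3.97%), all lower after stress, and 3 of the 6 held a member together with plasma or mucus loci. They were unit 1 with a log2 fold change of -3.38 ± 0.13 (SE) and an FDR of 0.0121, unit 7 with -3.63 ± 0.23 and 0.0168, and unit 18 with -3.60 ± 0.44 and 0.0742. Unit 1 had not been tested as listed, since its counts were divided among 3 rows. Of the rows so rebuilt, 16 that held a member passed the filter.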

How the data were processed

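The authors trimmed reads with cutadapt 2.10 and ran miARma-Seq 1.7.2, which aligned them to Omyk_1.0 with bowtie 1.1.1 and counted known and predicted miRNAs with miRDeep2 2.0.1.2. The deposited table holds estimated counts without normalization, all whole numbers, so rounding changed none, and 1 read may add to several loci of the same sequence. The deposited tables of the authors' own comparisons (log2 values, p-values, a likelihood ratio and scores) were not used. Whether loci were predicted in each library by itself is not given in the sources used here.

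Groups came from the labels, and tanks paired control with stressed water as the methods state. Deviations of the libraries of a tank from their group means correlated at 0.19, 0.17 and 0.09 over 193 rows. All pairs of water libraries of the same treatment differed by more than counting noise. The members and lists were chosen with earlier results of these data known.

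Overlap means at least 1 shared base on a strand. A place is a unit with the predicted loci that overlap it, at the highest count per library. Water was fitted in R 4.3.3 with edgeR 4.0.16 (TMM, filterByExpr, quasi-likelihood test, tank as block), and DESeq2 1.42.0 and the study's likelihood ratio test were alternatives. Standard errors given for edgeR are the absolute log2 fold change divided by the square root of the F statistic, not estimates of the fit. The fit was run on simulated data at a lower dispersion (spread between replicates) than the 1.23 fitted here, so its outcome does not carry over to these data. Single values were compared by exact sign-flip tests over the 3 tanks in Python 3.11, which measure the spread between tanks only. Loci are named when counted in 3 tanks or past the filter, when among the 10 highest counts, or when called, and units 13, 14, 18, 23 and 30 were chosen after their values were seen. Trimmed reads are the totals the study gives. Thinning covers counting error only, as PCR copies are not independent molecules. A locus left with 1 count was taken as counted, below the smallest listed count of 3.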

Additional observations from a re-analysis of the deposited data

How the results depend on the processing

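edgeR's quasi-likelihood test called 1 member and 3 of 165 rows. With no replicate block for the tank it called 0 members and 14 of 165 rows (11 higher, 3 lower). At an unadjusted p of 0.05 or less these were 0 of 9 members and 34 of 165 rows. With no filter it called 0 of 548 rows, with 12 of 225 members (2 higher, 10 lower) and 38 rows at unadjusted p. Scaled by trimmed reads it called 0 members and 82 of 176 rows (81 higher, 1 lower). At unadjusted p these were 0 of 9 members and 91 of 176 rows. With overlapping loci summed or at their highest count, it called 0 of 6 rows of members alone (0 at unadjusted p). There 3 of 16 rows holding a member were called. Of all 151 rows 6 were called, and 27 passed at unadjusted p, in either setting. DESeq2's Wald test called 9 members and 28 of 548 rows. Without any 1 tank edgeR's test called 0 rows. At unadjusted p, leaving out tank 1, 2 or 3 gave 2 of 19, 1 of 13 and 4 of 19 members. Over all rows the numbers were 17 of 182, 13 of 190 and 29 of 189. With pairing removed, the log2 fold change of unit 7 (NC_035077.1 from 6400391) was -3.56 with an FDR of 0.319, and that of unit 38 (NC_035093.1 from 45959715) turned from 1.31 to -0.13. Without any 1 tank unit 38 ranged from -0.38 to 6.98, and the 4 copies of unit 9 (-3.41 with all tanks) from -8.06 to 1.29, with 1.29 when tank 1 was left out. The rows rebuilt at the highest count and the scaling by trimmed reads in edgeR, the merging by equal span, the share of whole places, the sets with no overlap and the scaling by trimmed reads without unit 1 were chosen after seeing the data.

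The difference in number of loci kept its direction in 3 of 3 tanks at a count minimum of 10 (25.0) and as merged units (12.3). After thinning it did too (17.8), but there 1 count left made a locus counted. For the 68 units with no plasma or mucus overlap the direction held in 2 of 3 tanks (3.67). At a count minimum of 10 it held for these in 1 of 3 (2.33). The mean log2 ratio of the share stayed negative when a single choice was changed, from -0.37 by trimmed reads, where only 1 of 3 tanks was lower, to -3.46 for the 138 loci with no such overlap, where 2 of 3 were. It turned to 0.65 by trimmed reads without unit 1. Without any 1 tank it was -2.01 to -3.02. Units in 3 tanks numbered 7, and 5 at a count minimum of 10. Loci as listed in 3 tanks numbered 7 too, but these included the 4 identical copies of unit 9. Of the 225 loci, 86 overlapped a plasma or mucus locus over at least 50% of their span. Units numbered 137 when identical rows were merged only from 10 counts and 111 with overlap on either strand. With 3 tanks, control totals of 445067 to 695998 and counts that list no predicted locus below 2, neither the absence of a locus nor a change of a sparse one can be shown.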
